A study of Mus musculus with 2 samples.

Results

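Notch processing genes, nuclear effectors and Dtx2 were described here in the second polar body (PB2) of one-cell C57BL/6 mouse embryos and in zygotes. The 9 genes are Notch1, Notch2, Adam10, Adam17, Psen2, Ncstn, Rbpj, Maml1 and Dtx2. They were taken by symbol from a table of 11262 genes, and all 9 were found in it. The genes were chosen by their place in the pathway with the PB2 and zygote values of the same table already known. Their differences between the libraries are therefore given as a description.

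Untreated one-cell embryos were cultured in KSOM, freed of the zona pellucida with acid Tyrode's solution late in the one-cell stage, and pipetted in trypsin until PB2 came off the embryo. Pooled PB2s gave 1 library, and pooled zygotes gave the other. The mRNA was amplified as full-length cDNA before sequencing. No group carried a mutation, a transgene or a drug. With 1 library per group there is no spread between replicates, so the values are compared without a test or a p-value. Values are TPM, a gene's share of its own library adjusted for gene length. Levels are set side by side between genes and between libraries as TPM only. Amplification and the length adjustment can change proportions between transcripts, so these comparisons need not hold for amounts of RNA. TPM keeps no record of read number, so depth is unknown here and counting intervals cannot be had. TPM is also a proportion, so more RNA of one gene and less RNA of the others cannot be told apart.

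Notch receptors carry signals between touching cells. A ligand on a neighbouring cell pulls on the receptor, the metalloproteases ADAM10 and ADAM17 cut it outside the membrane, and γ-secretase, a complex built around a presenilin and nicastrin, then cuts it inside the membrane. The freed intracellular part enters the nucleus, binds RBPJ and recruits Mastermind-like coactivators, while Deltex proteins are ubiquitin ligases that bind the receptor's intracellular part and act on its trafficking. In mouse embryos before implantation the pathway is best known for its part, together with Hippo signaling, in the outer cells that form the trophectoderm.

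Coding sequences at sites of this proteolysis are printed first, for the receptors, the ADAM proteases and the presenilin. They were read from GENCODE M21 (GRCm38), taking for each gene its longest protein-coding transcript, 5′ to 3′ on the coding strand. Capitals mark the codons of the named site, with up to 30 coding bases on either side in lower case.

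For the receptors, capitals mark the glycine codon at the edge of the γ-secretase cut and the 4 codons that follow it. In Notch1 these are codons 1743 to 1747, on the minus strand at chr2:26465433-26465507, and the stretch has a GC content of 68.0%. In Notch2 they are codons 1698 to 1702, on the plus strand at chr3:98138695-98138769, with a GC content of 56.0%. Both stretches lie within 1 exon.
Notch1: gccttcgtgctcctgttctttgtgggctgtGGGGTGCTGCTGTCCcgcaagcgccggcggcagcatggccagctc
Notch2: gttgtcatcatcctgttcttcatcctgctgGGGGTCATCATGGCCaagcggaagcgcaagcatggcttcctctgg

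For the ADAM proteases, capitals mark the zinc-binding motif of the catalytic domain. It covers codons 384 to 394 of Adam10, on the plus strand within chr9:70754266-70761615, and codons 424 to 434 of Adam17, on the minus strand within chr12:21336702-21340480. Each stretch runs over 2 exons, with an intron between the coordinates. Their GC contents were 44.1% and 47.3%.
Adam10: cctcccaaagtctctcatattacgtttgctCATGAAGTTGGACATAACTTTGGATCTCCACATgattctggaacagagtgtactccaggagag
Adam17: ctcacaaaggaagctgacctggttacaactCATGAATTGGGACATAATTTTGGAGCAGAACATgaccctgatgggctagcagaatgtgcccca

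For Psen2, capitals mark the motifs that hold the catalytic aspartates of presenilin, which end at codon 263 in one case and at codon 366 in the other. Both stretches are on the minus strand and run over 2 exons, within chr1:180233678-180235022 and chr1:180228906-180229401. Their GC contents were 62.1% and 61.1%, well above those of the ADAM stretches.
Psen2, codons 262 to 263: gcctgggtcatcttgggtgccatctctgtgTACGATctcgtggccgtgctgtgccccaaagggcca
Psen2, codons 363 to 366: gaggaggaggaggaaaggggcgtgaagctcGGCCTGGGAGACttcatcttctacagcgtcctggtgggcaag

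Dtx2 had the largest difference of the 9 genes, and its first 90 coding bases are shown for comparison with the start codon in capitals. They lie within 1 exon on the plus strand at chr5:136010089-136010178 and have a GC content of 62.2%.
Dtx2: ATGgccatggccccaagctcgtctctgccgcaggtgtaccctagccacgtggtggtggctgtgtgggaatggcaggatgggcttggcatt

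Dtx2, Psen2, Ncstn and Notch2 were higher by 2-fold or more in PB2, and Adam10, Adam17, Rbpj, Maml1 and Notch1 lay within 2-fold. None of the 9 was higher by 2-fold or more in the zygote. These counts rest on the log2 ratio, log2((PB2 TPM + 1)/(zygote TPM + 1)), where the pseudocount of 1 understates the differences of low genes. Of the 10645 genes with at least 1 TPM in either library, 2009 (a background of 18.9%) passed 2-fold towards PB2 and 861 (8.09%) towards the zygote. The 9 genes were compared on the same scale, with 4 of 9 (44.4%) past 2-fold towards PB2, but since their values entered the choice nothing is read from that share. Their median log2 ratio was 0.22, beside 0.21 over all genes compared. Notch1 and Notch2 reached 1 TPM through PB2 alone, so their place among the genes compared depends on the library in which they are higher.

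**Figure D1:**
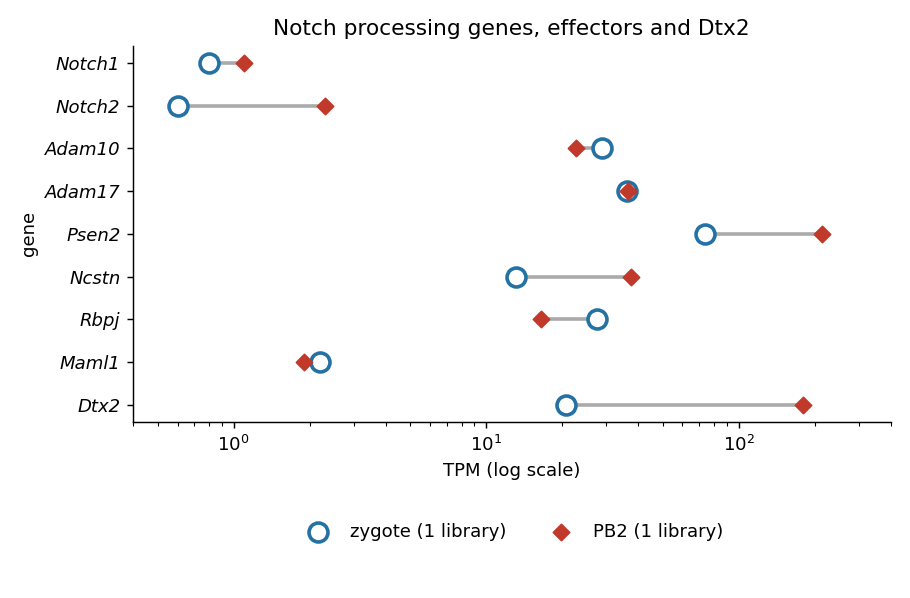
TPM of the 9 genes in the zygote library (open circles) and the PB2 library (filled diamonds) on a log axis, 1 library each. Dtx2 spans 20.8 to 180.7 TPM, Psen2 and Ncstn are also apart, and the 2 values of Adam17 lie on each other.

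The receptors Notch1 and Notch2 were near the lower end of the table in both libraries. Notch1 (ENSMUSG00000026923, minus strand of chromosome 2, 26457903 to 26516663) stood at 0.8 TPM in zygotes and at 1.1 TPM in PB2. Its log2 ratio was 0.22, the same as the median of all genes to within 0.01, and the rounding of the values to 1 decimal allows any PB2-to-zygote ratio between 1.24 and 1.53. Notch2 (ENSMUSG00000027878, plus strand of chromosome 3, 98013527 to 98150361) stood at 0.6 TPM in zygotes and at 2.3 TPM in PB2. Its log2 ratio was 1.04, just past 2-fold, and rounding allows a ratio between 3.46 and 4.27.

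Notch2 made up 42.9% of the TPM of both receptors in the zygote and 67.6% in PB2. In the zygote, where they differ by 0.2 TPM, their levels cannot be put in a firm order. In PB2, 9.89% of the genes in the table were lower than Notch1 and 19.9% were lower than Notch2. Notch3 and Notch4 were looked up and are not in the table, so no level can be given for them.

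Adam10 and Adam17, the proteases that make the first ligand-dependent cut, stood between 22.8 and 36.6 TPM and were nearly level between the libraries. Adam10 (ENSMUSG00000054693, plus strand of chromosome 9, 70678997 to 70780229) stood at 28.9 TPM in zygotes and at 22.8 TPM in PB2, giving a log2 ratio of -0.33. Adam17 (ENSMUSG00000052593, minus strand of chromosome 12, 21323509 to 21373632) stood at 36.1 TPM in zygotes and at 36.6 TPM in PB2, giving a log2 ratio of 0.02 that turned to -0.06 under median ratio scaling and -0.32 with the length trend removed. Adam17 was the higher of the pair in both libraries, at 1.25 times the level of Adam10 in the zygote and 1.61 times in PB2. Relative to the median gene, which was shifted towards PB2 by 0.21, both log2 ratios were below 0, at -0.54 for Adam10 and -0.19 for Adam17.

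Psen2, a presenilin and so the catalytic subunit of γ-secretase, was the most abundant of the 9 genes in either library. Psen2 (ENSMUSG00000010609, minus strand of chromosome 1, 180227004 to 180263438) stood at 73.5 TPM in zygotes and at 213.7 TPM in PB2. The ratio was 2.91 and the log2 ratio 1.53, and 760 genes, 7.14% of those compared, exceeded it. In PB2, 656 genes of the table had a higher level than Psen2, against 1667 in the zygote.

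Ncstn, which encodes nicastrin, the subunit that receives the trimmed substrate, differed by nearly the same factor. Ncstn (ENSMUSG00000003458, minus strand of chromosome 1, 172066013 to 172082795) stood at 13.2 TPM in zygotes and at 37.5 TPM in PB2, giving a ratio of 2.84 with rounding bounds of 2.83 and 2.86. Its log2 ratio was 1.44. The level of Psen2 was 5.57 times that of Ncstn in the zygote and 5.70 times in PB2, so the proportion between these subunits differed little between the libraries while both levels differed.

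Other γ-secretase genes did not all follow Psen2 and Ncstn. Aph1a, a scaffold subunit, stood at 2.9 TPM in zygotes and at 8.5 TPM in PB2, giving a log2 ratio of 1.28, and 0.73 with the GC trend removed. Its level was 0.220 times that of Ncstn in the zygote and 0.227 times in PB2.

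Psenen, which encodes the small subunit PEN-2, went the other way, with 516.3 TPM in the zygote, 399.1 TPM in PB2 and a log2 ratio of -0.37. It stood at 39.1 times the level of Ncstn in the zygote and 10.6 times in PB2. Aph1b (3.8 and 6.1 TPM in the zygote and PB2) and Aph1c (3.5 and 3.6 TPM) are near-identical copies whose reads could be split between them, so their separate levels are uncertain.

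Neither Rbpj nor Maml1, which act in the nucleus, was higher in PB2. Rbpj (ENSMUSG00000039191, plus strand of chromosome 5, 53466152 to 53657362), the DNA-binding protein to which the freed receptor domain attaches, stood at 27.6 TPM in zygotes and at 16.5 TPM in PB2. The zygote-to-PB2 ratio was 1.67 and the log2 ratio -0.71, the lowest of the 9 genes. In all, 85.7% of the genes compared lay above Rbpj in log2 ratio. Its direction was the same under every alternative computed, with log2 ratios from -1.06 to -0.58. Rbpj has 2 processed pseudogenes in the annotation, Rbpj-ps1 and Rbpj-ps3, and reads shared with them could have been lost or moved.

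Maml1 (ENSMUSG00000050567, minus strand of chromosome 11, 50255634 to 50292311), a coactivator that joins RBPJ and the receptor domain on DNA, stood at 2.2 TPM in zygotes and at 1.9 TPM in PB2. Its log2 ratio was -0.14, and rounding allows a zygote-to-PB2 ratio between 1.10 and 1.22. Rbpj stood at 12.5 times the level of Maml1 in the zygote and 8.68 times in PB2. Maml2 and Maml3 were looked up as well and are not in the table.

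Dtx2 (ENSMUSG00000004947, plus strand of chromosome 5, 135994800 to 136032872) encodes Deltex 2, a RING-type ubiquitin ligase of the Notch pathway. It stood at 20.8 TPM in zygotes and at 180.7 TPM in PB2, giving a ratio of 8.69 with rounding bounds of 8.66 and 8.71. The log2 ratio was 3.06, and 6 of the 10645 genes compared had a larger one. In the zygote, 3812 genes of the table were above Dtx2, and in PB2 794 were.

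The rank of Dtx2 among the 9 genes differed accordingly. In the zygote it ranked 5, below Psen2, Adam17, Adam10 and Rbpj, and in PB2 it ranked 2, below Psen2 alone. Psen2 stood at 3.53 times the level of Dtx2 in the zygote and at 1.18 times in PB2. The 9 genes added up to 203.7 TPM in zygotes and 513.1 TPM in PB2, and the share of Dtx2 in that sum was 10.2% in the zygote and 35.2% in PB2.

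Of the other Deltex genes, Dtx3l was in the table, with 3.2 TPM in the zygote, 8.7 TPM in PB2 and a log2 ratio of 1.21. The genes nearest to Dtx2 in both libraries, by distance on the log2(TPM + 1) scale over the 2 libraries, were Nat14 (25.3 TPM in zygotes, 167.5 TPM in PB2, distance 0.292), Oaz2 (25.2 and 156.8 TPM, 0.334) and Prr5 (26.9 and 194.0 TPM, 0.370). Nearest to Psen2 were Rab6a, Psme3 and Mlf2, with distances of 0.029 to 0.044, so Psen2 had closer neighbours than Dtx2 did.

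**Figure D2:**
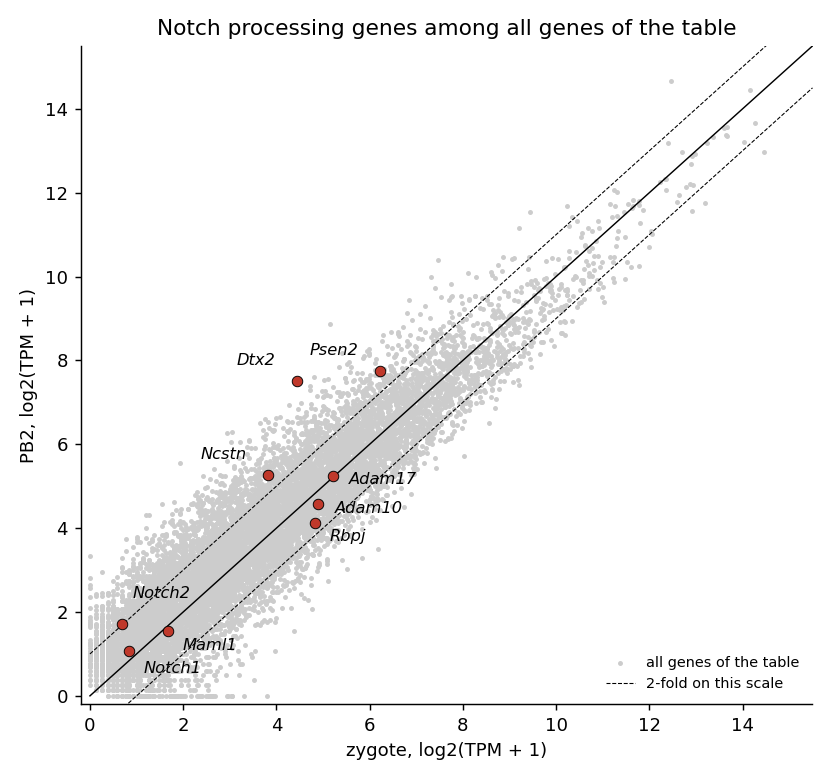
Each gene of the table by log2(TPM + 1) in the zygote (x axis) and PB2 (y axis), with the 9 genes in red, the line of equality solid and 2-fold dashed. Dtx2 lies at the outer edge of the cloud, Psen2, Ncstn and Notch2 at or above the upper dashed line, and the other 5 between the dashed lines.

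The transcripts of the 9 genes differed in composition, and the log2 ratio of all genes moved with GC content. With the 10606 genes that have a coding transcript in GENCODE M21 put into 10 equal groups by GC, the median log2 ratio went from -0.36 in the lowest group to 0.93 in the highest, and the share higher by 2-fold or more in PB2 from 3.30% to 47.3%. The part of GC content in the differences of single genes was not tested. Dtx2 had the highest GC content of the 9, 59.5%, and Adam10, Rbpj and Adam17 the lowest, at 42.1%, 43.7% and 45.1%. Among the 1060 genes of its own GC group, 4 had a larger log2 ratio than Dtx2.

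Psen2 (55.1%) was less far from the genes of like GC content, of which 17.9% had a larger log2 ratio, beside 8.77% for Ncstn (51.7%) and 27.9% for Notch2 (53.6%). Notch1 and Maml1 were rich in GC without reaching 2-fold in either direction. Notch1 (57.1%) and Maml1 (55.7%) were in a group with a median log2 ratio of 0.80, and 73.4% and 83.8% of its genes had a larger log2 ratio than they did. With the trend on GC content removed, the log2 ratios were 2.12 for Dtx2, 1.04 for Ncstn, 0.85 for Psen2 and 0.49 for Notch2, so that 2 of the 4 genes stayed past 2-fold. For Adam17 the value was 0.07, for Adam10 -0.11, for Rbpj -0.58, for Notch1 -0.59 and for Maml1 -0.87, so Notch1 changed sign, as it also did with the trend on length removed (-0.03). With the GC trend removed, 963 genes passed 2-fold towards PB2 and 1162 towards the zygote, and the PB2 side made up 45.3% of them in place of 70.0%.

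**Figure D3:**
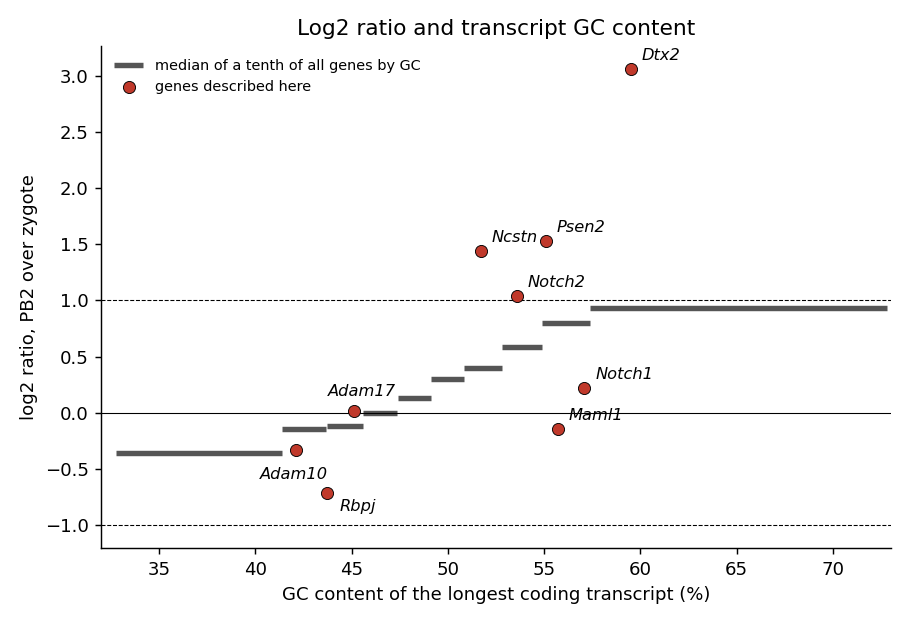
Log2 ratio of PB2 over zygote against transcript GC content for the 9 genes (red), with grey bars for the median of each of 10 equal groups of all genes by GC. Dtx2, at 3.06, is far above the bar of its group, while Notch1 and Maml1 are below theirs.

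Transcript length and its parts also set the genes apart. Psen2, Dtx2 and Ncstn had the shortest transcripts, at 2020, 2650 and 2901 bases, and the other 6 had 4469 to 10500 bases. The longest was that of Notch2, which was also past 2-fold towards PB2. The 3′ untranslated regions of Dtx2 (385 bases), Psen2 (569) and Ncstn (661) were the shortest too, against 2917 in Notch2 and 3742 in Rbpj. The coding sequence of Maml1 had a GC content of 60.4%, as high as the 60.0% of Dtx2, while its 3′ untranslated region had 46.9% and that of Dtx2 59.2%. With the trend of the log2 ratio on length removed, Dtx2 was at 2.76, Psen2 at 1.29, Ncstn at 1.12, Notch2 at 0.81 and Rbpj at -1.06. Whether length or the 3′ end has a part in the differences was not tested.

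**Figure D4:**
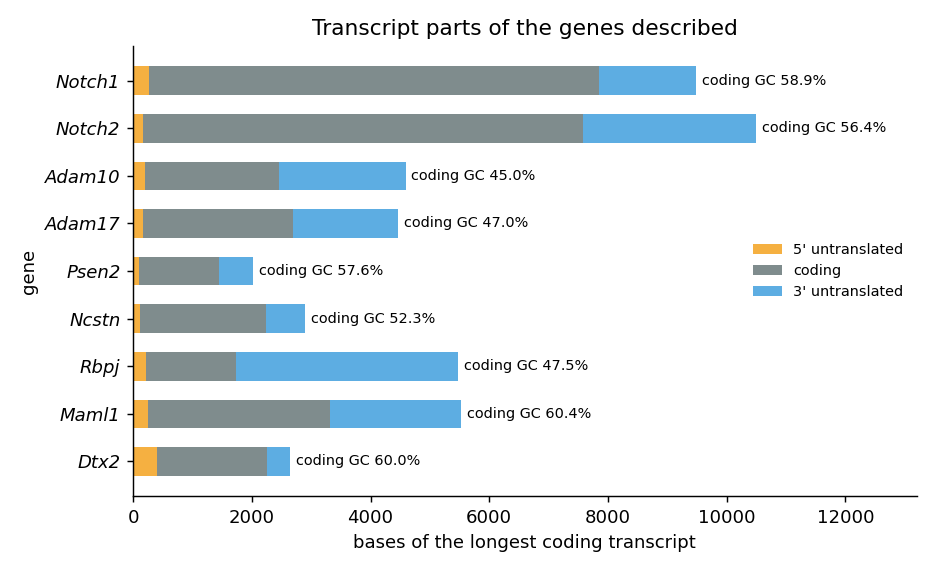
Lengths in bases of the 5′ untranslated, coding and 3′ untranslated parts of the longest coding transcript of each gene, with the GC content of the coding part as text. Psen2, Dtx2 and Ncstn have short transcripts with short 3′ parts, Notch2 has the longest transcript, and Rbpj has the longest 3′ part, 3742 bases.

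The 3′ ends were searched for the cytoplasmic polyadenylation element, a short U-rich sequence that stored maternal mRNAs use to lengthen their poly(A) tail. The letters searched were TTTTAT and TTTTAAT on the transcript strand within the last 100 bases. They were found in Dtx2 and Notch2, 2 of the 9 genes (22.2%), beside 19.8% of the 11221 genes of the table with a coding transcript, so the share is near the background. Psen2 and Ncstn, which were also past 2-fold, had no match. The element began 36 bases from the annotated end of Dtx2 and 33 bases from that of Notch2. It is in capitals in the stretches around it.
Dtx2 3′ end: tatacctcagaTTTTATttgcaataaag
Notch2 3′ end: tatgaaaacatTTTTATcacaaaataaa

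A poly(A) signal (AATAAA or ATTAAA) was within the last 40 bases of 8 of the 9 transcripts, all but Adam17, and in 76.9% of all. No match says only that these letters are not in this window of the annotated transcript.

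The rest of the pathway was described through a list of 70 genes by role, which was written with earlier results of these data known. Of these, 52 were in the table and 47 were compared. At least 2-fold higher in PB2 were 15 of the 47 (31.9%) and higher by 2-fold or more in the zygote 2 (4.26%), beside 18.9% and 8.09% of all genes, with a median log2 ratio of 0.50. With the GC trend removed, 5 of the list were past 2-fold towards PB2 and 3 towards the zygote, and the median was 0.18. Without the 9 genes described above, 11 of 38 (28.9%) were higher by 2-fold or more in PB2, 2 (5.26%) in the zygote, and the median was 0.53, beside 0.21 over all genes.

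Among the ligands, Jag2 stood at 6.0 TPM in zygotes and at 32.7 TPM in PB2, giving a log2 ratio of 2.27. Jag1 was the most abundant ligand in the table, with 61.5 TPM in zygotes and 87.5 TPM in PB2 (log2 ratio 0.50). Dll3 had 14.4 and 11.4 TPM (log2 ratio -0.31). With the GC trend removed, Jag2 was at 1.26 and Jag1 at 0.33, while Dll3, at -1.30, was past 2-fold towards the zygote. The 3 ligands stood between 6.0 and 87.5 TPM over both libraries, while the receptors stood at 2.3 TPM or less.

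Furin, the convertase that cuts the receptor on its way to the surface, stood at 1.4 TPM in zygotes and at 11.5 TPM in PB2, giving a log2 ratio of 2.38. The fringe glycosyltransferases Mfng and Rfng, which add sugar to the receptor and tune its response to ligands, had log2 ratios of 1.03 and 1.28. Poglut1, which puts glucose on the receptor's EGF-like repeats, was higher in the zygote, with 2.2 TPM beside 0.4 TPM in PB2 and a log2 ratio of -1.19. All 4 genes of this role were past 2-fold, 3 towards PB2 and 1 towards the zygote, beside 18.9% and 8.09% of all genes. With the GC trend removed, Furin and Poglut1 (-1.23) stayed past 2-fold, while Mfng was at 0.16 and Rfng at 0.33. Poglut1 reached 1 TPM through the zygote alone.

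Among the ubiquitin ligases and endocytic regulators, 3 of 8 genes compared were higher by 2-fold or more in PB2 and 1 in the zygote, beside 18.9% and 8.09% of all genes. Besides Dtx2 and Dtx3l, Neurl1a stood at 0.2 TPM in zygotes and at 1.8 TPM in PB2. Neurl1a was compared through its PB2 level alone, and its log2 ratio of 1.22 was 0.18 with the GC trend removed. Itch, a HECT-type ligase that promotes turnover of the receptor, was the one higher in the zygote, with 7.0 TPM beside 2.0 TPM in PB2 and a log2 ratio of -1.42. Numb, an inhibitor of Notch signaling, was within 2-fold (12.1 and 15.8 TPM in the zygote and PB2).

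Of the 6 nuclear effectors and coactivators, Kat2a, a histone acetyltransferase, was past 2-fold (1.9 TPM in the zygote, 6.3 TPM in PB2), and Crebbp was just under it with a log2 ratio of 0.98. Snw1, a splicing and transcription cofactor, was the most abundant, with 473.7 and 389.5 TPM. Among the corepressor genes, Ctbp1 was past 2-fold towards PB2 (1.6 and 6.0 TPM in the zygote and PB2). Of the 4 target genes compared, Hey1 was past 2-fold, with 3.7 TPM in zygotes and 8.9 TPM in PB2, and Hes1 had 1.6 and 2.5 TPM. With the GC trend removed, Kat2a (0.48), Ctbp1 (0.67) and Hey1 (0.61) were within 2-fold.

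**Figure D5:**
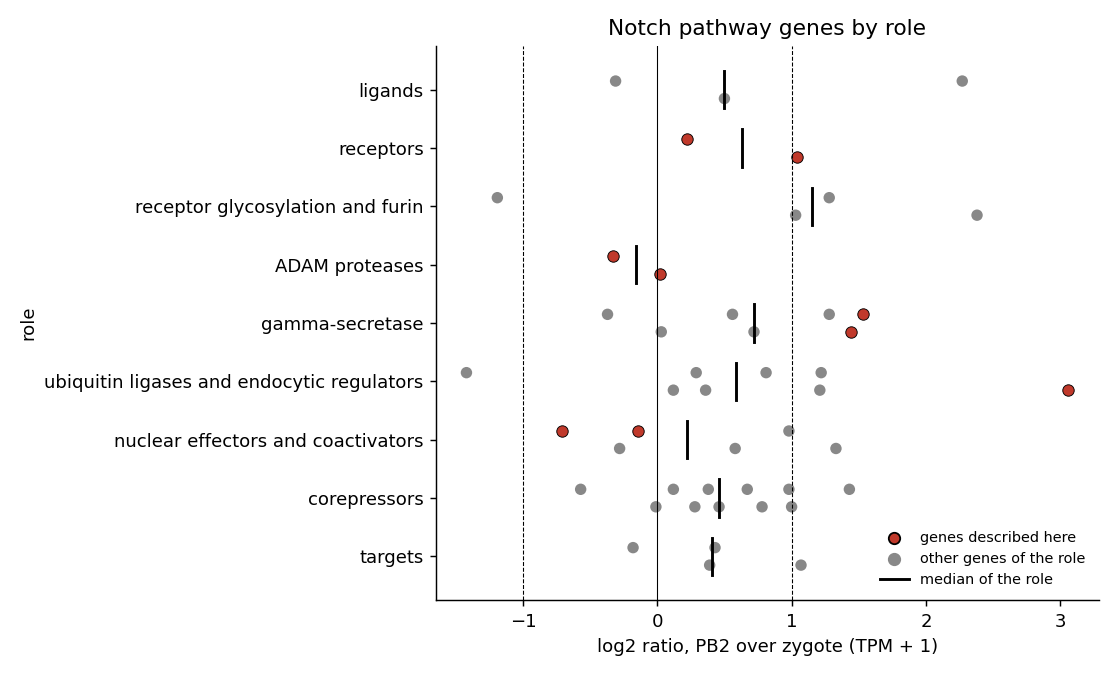
Log2 ratio of PB2 over zygote for the 47 pathway genes compared, 1 point per gene in rows by role, with the 9 genes described in red, the median of each role as a black bar and 2-fold as dashed lines. Dtx2, Furin and Jag2 lie farthest to the right, and Itch and Poglut1 to the left of the lower dashed line.

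The labelled tissue was checked against marker lists. All 12 oocyte and zygote markers were in the table, with summed levels of 59228 TPM in zygotes and 49130 TPM in PB2. The sums depend much on Dppa3, with 22561.9 TPM in zygotes and 8070.2 TPM in PB2. Past 2-fold were 3 of the 12 (25.0%) towards PB2 and 1 (8.33%), Dppa3, towards the zygote, beside 18.9% and 8.09% of all genes. The median log2 ratio of the 12 markers was 0.23. Of 14 cumulus and granulosa cell markers 4 were in the table, led by Cyp19a1 with 72.2 TPM in zygotes and 70.9 TPM in PB2, and they summed to 81.0 and 80.3 TPM, nearly the same in both libraries. Of 7 blood markers 0 were in the table. The table covers 92.7% of the TPM of the zygote library and 89.8% of that of PB2. Actb, the reference gene of the study's RT-qPCR, stood at 120.0 TPM in zygotes and at 134.8 TPM in PB2. Exons of Ncstn share 4.91% of their bases with Copa and those of Adam17 4.35% with Iah1, both on the opposite strand, and the use of strand in counting is not given in the sources used here.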

How the data were processed

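Expression values were analysed for 1 PB2 library and 1 zygote library. The authors aligned reads with HISAT2 (2.0.4) under default parameters, counted them per gene with HTSeq (0.6.1p1) on an Ensembl annotation and used DESeq2 (1.18.1) for their own normalization. The submitters' processing notes name both OryCun2.0, a rabbit assembly, and GRCm38, while all 11262 identifiers are mouse Ensembl identifiers. The authors deposited TPM values rounded to 1 decimal, and how TPM was made from the counts is not given in the sources used here. Amplification and gene length adjustment can change proportions between transcripts.

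The log2 ratio used a pseudocount of 1 TPM over genes with at least 1 TPM in either library, and at least 2-fold on that scale was counted. No test was run. Each gene's longest protein-coding transcript in GENCODE M21 gave its GC content and length, and trends were fitted by lowess with a span of 0.3. Rounding bounds take each TPM as known to 0.05. The 9 genes, the pathway and marker lists, and the alternatives were chosen with earlier results of these data known. Named were these 9 genes, genes of the pathway and marker lists (some of which are not reported here), the 3 genes nearest to Dtx2 and to Psen2, and Actb. Copa, Iah1 and the Rbpj pseudogenes were named after the annotation was examined. The functions were tested on simulated data. Python 3.11.15, numpy 2.4.6, pandas 2.3.3, statsmodels 0.14.6 and matplotlib 3.10.9 were used.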

Additional observations from a re-analysis of the deposited data

How the results depend on the processing

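No paired analysis was possible because each group has 1 library. Dtx2 (2.12 to 3.12) and Ncstn (1.04 to 1.51) stayed past 2-fold towards PB2 under each of 9 alternative scalings, pseudocounts, filters and trend removals. Psen2 (0.85 to 1.54) did so under 8 of 9 and Notch2 (0.49 to 1.92) under 5 of 8. A filter leaves a gene's own log2 ratio unchanged, so the filter settings in these counts could not move it. With a filter at 5 TPM the median of the 9 genes was 0.73, since Notch1, Notch2 and Maml1 drop out. At that filter Dtx2, Psen2 and Ncstn and 12 pathway genes were past 2-fold towards PB2, beside 1636 of all genes (20.7%). Towards the zygote 1 pathway gene was past 2-fold, beside 662 of all genes (8.39%). The share of the pathway list at that filter was not computed. With the GC trend removed 2 of the 9 genes, 5 of the pathway list and 963 of all genes (9.08%) were past 2-fold towards PB2. With the length trend removed 1 of the 9 genes, Rbpj, was past 2-fold towards the zygote, beside 11.7% of all genes. Past 2-fold towards PB2 were 7 pathway genes and 1283 of all genes (12.1%). Removing a trend centres all ratios near 0 as well, and the cause was not tested. Centring on the median, chosen after seeing the data, put 1383 genes (13.0%) past 2-fold towards PB2 and 1291 (12.1%) towards the zygote. Of the genes past 2-fold, 51.7% were then on the PB2 side. In that setting 3 of the 9 genes were past 2-fold towards PB2, while Adam17 turned from 0.02 to -0.19. At 1.5-fold 1 of the 9 genes was higher in the zygote. Of all genes 3642 (34.2%) were then higher in PB2 and 1924 (18.1%) in the zygote. At 4-fold 1 of the 9 genes (Dtx2) and 3 pathway genes were higher in PB2, 0 pathway genes in the zygote, and 264 and 74 of all genes. No called value changed sign. Depth is unknown, so counting error for genes under a few TPM, Notch1, Notch2 and Maml1 among them, has no known size.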
